A study of Mus musculus with 2 samples.

Results

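The 10 genes described here encode enzymes of the breakdown of leucine, isoleucine and valine, the branched-chain amino acids, and the enzymes that switch it on and off. They were taken by symbol, as Bcat1, Bcat2, Bckdha, Bckdhb, Dbt, Bckdk, Ppm1k, Ivd, Mccc1 and Hibadh, out of 55536 genes in the deposited gene table, and all 10 were found. The data were total RNA libraries from gastrocnemius, a large muscle of the calf, taken from 2 female B6CASTF1/J mice, which are F1 hybrids between B6 and CAST, at 2 months of age. No treatment, transgene or other allele is given in the labels. The mice form 1 group and are called animal 1 and animal 2, so no comparison of conditions was possible and no p-value was computed. The labels number the mice separately but give both 1 donor record, so the spread between the libraries may be technical or lie within 1 mouse.

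The libraries held 45231388 expected counts in animal 1 against 47956841 in animal 2, of which the 10 genes took 20983 and 24289. Markers of skeletal muscle and of its fast fibres were present, with all 7 of 7 at 1 TPM (a level scaled to transcript length and to the library's total) or more and Acta1, the actin of all skeletal fibres, highest at 16629 TPM in animal 1 against 16341 TPM in animal 2. The libraries stood apart in other cell types. The 7 markers of slow fibres summed to 854 TPM in animal 1 against 3586 TPM in animal 2, the 9 adipocyte markers to 799 and 108 TPM, and the 10 Schwann cell markers to 259 and 35.8 TPM. In bulk RNA, fewer cells of a type and less RNA per cell cannot be told apart.

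Branched-chain amino acids are unusual in that skeletal muscle, rather than the liver, carries out much of their first step. A transaminase moves the amino group to 2-oxoglutarate, and the remaining keto acid is then committed to breakdown by a mitochondrial dehydrogenase complex, which a kinase inactivates and a phosphatase reactivates. Beyond the complex the pathways part: leucine ends in acetyl-CoA and acetoacetate, valine in propionyl-CoA, and isoleucine in both acetyl-CoA and propionyl-CoA.

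The promoters of the genes were read from RefSeq's table for GRCm38.p6, the assembly that mm10 stands for, as windows from 250 bases before a transcription start to 50 bases after it. The table held 12 windows for 9 of the 10 genes, and none for Dbt. Of these, 6 are printed 5′ to 3′ on the gene's own strand, with the CCAAT box (CCAAT, or ATTGG where it lies on the other strand) in capitals. The windows of Bcat1 and Bcat2 are shown because these paralogues were furthest apart in level, both windows of Bckdhb because transcripts from both starts were counted, and those of Ivd and Mccc1 because they held the most CCAAT boxes.
Bcat1 first window, chr6:145076108-145076407, minus strand: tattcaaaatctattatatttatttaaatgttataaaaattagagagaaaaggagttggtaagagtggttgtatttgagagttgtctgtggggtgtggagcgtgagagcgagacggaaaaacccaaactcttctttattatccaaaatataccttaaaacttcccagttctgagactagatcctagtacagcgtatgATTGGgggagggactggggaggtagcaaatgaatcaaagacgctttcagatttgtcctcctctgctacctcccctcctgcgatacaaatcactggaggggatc
Bcat2 first window, chr7:45569903-45570202, plus strand: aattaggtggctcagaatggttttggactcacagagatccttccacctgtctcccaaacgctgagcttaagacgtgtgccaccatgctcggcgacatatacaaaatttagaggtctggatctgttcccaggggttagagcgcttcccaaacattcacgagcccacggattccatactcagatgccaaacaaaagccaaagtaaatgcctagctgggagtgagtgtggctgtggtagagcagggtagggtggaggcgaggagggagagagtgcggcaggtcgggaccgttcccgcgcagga
Bckdhb first window, chr9:83924887-83925186, plus strand: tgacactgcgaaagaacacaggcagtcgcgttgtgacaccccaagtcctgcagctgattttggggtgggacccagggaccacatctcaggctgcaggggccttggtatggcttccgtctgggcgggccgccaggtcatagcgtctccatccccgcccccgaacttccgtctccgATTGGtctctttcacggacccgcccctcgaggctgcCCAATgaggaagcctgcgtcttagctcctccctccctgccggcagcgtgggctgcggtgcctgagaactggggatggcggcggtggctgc
Bckdhb inner window, chr9:83948531-83948830, plus strand: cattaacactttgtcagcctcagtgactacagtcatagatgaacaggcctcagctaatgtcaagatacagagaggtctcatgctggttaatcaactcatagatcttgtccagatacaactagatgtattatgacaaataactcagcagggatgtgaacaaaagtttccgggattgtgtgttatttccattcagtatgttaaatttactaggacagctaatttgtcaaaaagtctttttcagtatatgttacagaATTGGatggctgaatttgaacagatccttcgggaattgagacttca
Ivd, chr2:118861744-118862043, plus strand: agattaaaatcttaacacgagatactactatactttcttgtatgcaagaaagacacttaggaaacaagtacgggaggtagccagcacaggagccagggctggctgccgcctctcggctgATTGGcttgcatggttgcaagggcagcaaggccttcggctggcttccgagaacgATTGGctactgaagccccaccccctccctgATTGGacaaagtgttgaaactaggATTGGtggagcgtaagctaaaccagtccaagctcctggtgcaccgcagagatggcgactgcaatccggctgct
Mccc1, chr3:36000629-36000928, minus strand: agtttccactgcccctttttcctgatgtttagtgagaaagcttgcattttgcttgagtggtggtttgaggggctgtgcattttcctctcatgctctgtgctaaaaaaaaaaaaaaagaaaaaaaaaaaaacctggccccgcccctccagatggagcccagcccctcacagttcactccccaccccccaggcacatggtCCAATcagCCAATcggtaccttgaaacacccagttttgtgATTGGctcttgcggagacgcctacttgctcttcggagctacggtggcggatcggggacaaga

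The CCAAT box stood in 8 of the 12 windows and in 7 of the 9 genes, and 37.4% of the 32851 promoter windows in the whole RefSeq table held at least 1. Ivd held 4 boxes, a number reached by 1.06% of all windows, and Mccc1 held 3, reached by 3.37%. Ppm1k and the first window of Bckdhb held 2 each, reached by 11.7%. Neither window of Bcat2 nor that of Bckdha held the 5 letters. However, the window of Bckdha and the second of Bcat2 have no annotated transcript start within 100 bases of their own start. The Bckdha window is set on 25658761, while its main transcript Bckdha-201 starts at 25658981. The letters TATAAA of the TATA box, searched on both strands and at any position, were found in the first window of Bcat1 and in that of Bckdk, against 13.6% of all windows. The nuclear receptor half-site AAGGTCA was in none of the 12 windows, against 4.72% of all. The first window of Bckdhb had a G and C content of 65.0%, its inner window 37.3% and the first window of Bcat1 41.0%, where the median of all windows was 52.7%. These matches describe letters in the windows only.

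At 1 TPM or more in both animals, 9 of the 10 genes were detected, the exception being Bcat1. The same threshold was passed by 20.1% of all genes and by 46.5% of the 22015 nuclear protein-coding genes. The median of the 10 genes was 31.4 TPM, beside 7.74 TPM for the 10227 nuclear protein-coding genes that passed. The levels ranged from 0.41 ± 0.255 TPM for Bcat1 (SD, n = 2) to 64.5 ± 1.51 TPM for Bckdk, whose rank was 713 among the nuclear protein-coding genes.

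**Figure D1:**
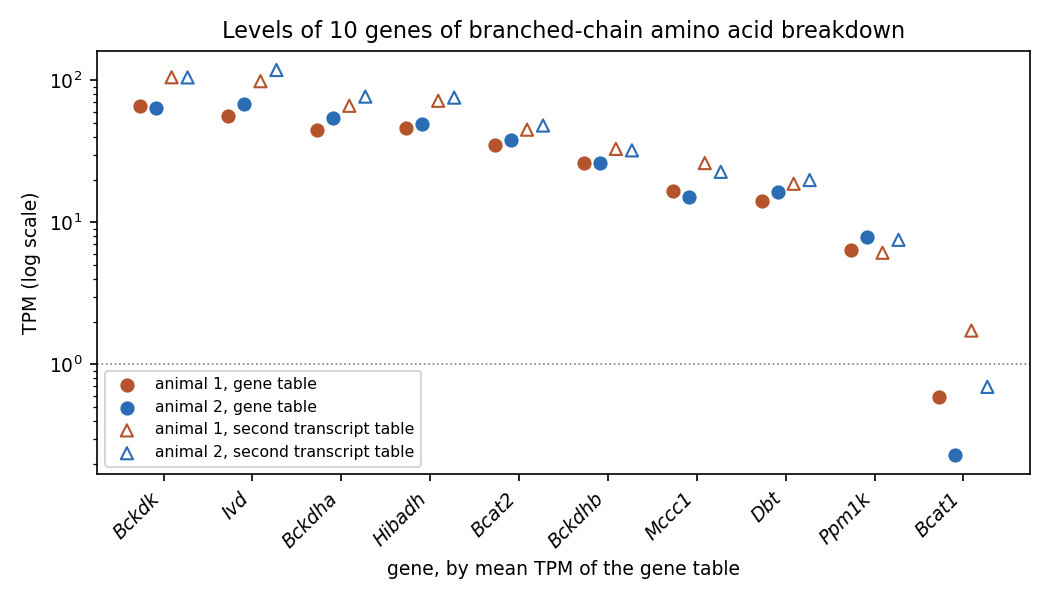
TPM on a log scale for each of the 10 genes in animal 1 (orange) and animal 2 (blue), from the gene table (filled circles) and from the second transcript table summed per gene (open triangles); the dotted line marks 1 TPM. Bckdk and Ivd were highest, at means of 64.5 and 61.8 TPM in the gene table, and only Bcat1 lay below the line in that table, in both animals.

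Of the 2 transaminase genes, the mitochondrial one made up nearly all of the transcript. Bcat2, the mitochondrial branched-chain transaminase (ENSMUSG00000030826.19, chromosome 7, 45570153 to 45589711, plus strand, mm10), had 35.2 TPM in animal 1 against 38.1 TPM in animal 2. Bcat1, its cytosolic paralogue, best known from brain and from tumours (ENSMUSG00000030268.17, chromosome 6, 144993835 to 145076184, minus strand), had 0.59 TPM in animal 1 against 0.23 TPM in animal 2, from 48 and 31 reads. The 2 genes did not overlap in level in either animal. Within an animal, the log2 ratio of TPM (pseudocount 0.1 TPM) of Bcat2 over Bcat1 was 6.27 ± 0.83 (SD, n = 2), or 77.0-fold, which exceeds 2 SD. Bcat1 lies near the pseudocount, and with a pseudocount of 1 TPM the log2 ratio was 4.75 ± 0.34. In the second transcript table the ratio was 38.6-fold, with Bcat1 at a mean of 1.21 TPM.

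The 3 genes that encode subunits found only in the branched-chain dehydrogenase complex differed from each other in level. Bckdha, the alpha chain of the decarboxylase that opens the reaction (ENSMUSG00000060376.7, chromosome 7, 25629946 to 25658981, minus strand), had 44.4 TPM in animal 1 against 54.3 TPM in animal 2. Bckdhb, its beta chain (ENSMUSG00000032263.14, chromosome 9, 83925145 to 84124240, plus strand), had 26.2 TPM in animal 1 against 26.0 TPM in animal 2. Dbt, the transacylase that forms the core of the complex (ENSMUSG00000000340.10, chromosome 3, 116513070 to 116549981, plus strand), had 14.1 TPM in animal 1 against 16.4 TPM in animal 2. Both animals gave the same order, alpha chain above beta chain above core. Bckdha stood at 1.88-fold the TPM of Bckdhb (log2 ratio 0.91 ± 0.21, SD, n = 2), although the 2 chains pair in equal numbers in the protein. Bckdha stood at 3.21-fold the TPM of Dbt and Bckdhb at 1.71-fold. All 3 differences between the subunits were larger than 2 SD between the animals, in both tables. Dld, the dihydrolipoamide dehydrogenase that this complex shares with the pyruvate and 2-oxoglutarate complexes, had 84.0 TPM in animal 1 against 91.7 TPM in animal 2, above each of the 3.

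The kinase transcript was far more abundant than that of the phosphatase that opposes it. Bckdk, which phosphorylates the alpha chain and so turns the complex off (ENSMUSG00000030802.14, chromosome 7, 127904082 to 127910221, plus strand), had 65.6 TPM in animal 1 against 63.4 TPM in animal 2. Ppm1k, the mitochondrial phosphatase that removes this phosphate (ENSMUSG00000037826.5, chromosome 6, 57506502 to 57535468, minus strand), had 6.36 TPM in animal 1 against 7.84 TPM in animal 2. Their log2 ratio was 3.17 ± 0.24 (SD, n = 2), or 9.02-fold, and it was 15.2-fold in the second table. Bckdk was also above its substrate Bckdha in both animals, but the log2 ratio of 0.39 ± 0.24 did not exceed 2 SD. In the second table the same ratio was 0.56 ± 0.15 and did. Over coding transcripts alone it was 0.09 ± 0.22, and Bckdk lay above Bckdha in animal 1 only. These values are of RNA, and the activity of neither enzyme was measured.

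Of the leucine branch, Ivd and Mccc1 differed by 3.90-fold. Ivd, isovaleryl-CoA dehydrogenase (ENSMUSG00000027332.11, chromosome 2, 118861954 to 118882909, plus strand), had 56.0 TPM in animal 1 against 67.6 TPM in animal 2. Mccc1, the biotin-carrying alpha subunit of methylcrotonyl-CoA carboxylase (ENSMUSG00000027709.9, chromosome 3, 35959312 to 36000678, minus strand), had 16.5 TPM in animal 1 against 15.0 TPM in animal 2. Ivd was above Mccc1 in both animals. The partner subunit Mccc2 had 15.4 TPM in each animal, and the log2 ratio of Mccc1 over Mccc2 was 0.03 ± 0.10 (SD, n = 2), within the spread. Ivd also exceeded Acad8, the matching dehydrogenase of the valine branch, by 4.85-fold. Against Acadsb, that of the isoleucine branch, the log2 ratio was -0.26 ± 0.06 in the gene table but 0.12 ± 0.17 in the second table, so their order depends on the table.

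Of the valine branch, Hibadh, the dehydrogenase of 3-hydroxyisobutyrate (ENSMUSG00000029776.11, chromosome 6, 52546228 to 52640389, minus strand), had 46.4 TPM in animal 1 against 49.2 TPM in animal 2. Its substrate is a free acid that can leave the cell, and muscle is known to release it. Hibch, the hydrolase that makes the substrate, had 14.8 TPM in animal 1 against 15.9 TPM in animal 2, and the ratio of Hibadh over Hibch was 3.10-fold (log2 1.63 ± 0.01, SD, n = 2). Aldh6a1, which uses the product of Hibadh, had 45.1 TPM in animal 1 against 45.8 TPM in animal 2. The log2 ratio of Hibadh over Aldh6a1 was 0.07 ± 0.04, within the spread, and 0.32 ± 0.07 in the second table, beyond it.

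By mean TPM the order was Bckdk, Ivd, Bckdha, Hibadh, Bcat2, Bckdhb, Mccc1, Dbt, Ppm1k and Bcat1. Of the 9 pairs of neighbours, Bckdk and Ivd, Bckdha and Hibadh, and Mccc1 and Dbt did not differ beyond 2 SD of their log2 ratio. The other 6 pairs did, in both tables. Over coding transcripts alone the place of Ivd was lower, at a mean of 30.35 TPM, below Bckdha at 49.4 TPM and Hibadh at 47.0 TPM. In all, 20 pairs of genes were set against each other here, with the genes of related complexes included. Of these, 17 differed beyond 2 SD in the gene table and 18 in the second table. The share of all gene pairs that differ so was not computed, so these counts do not set the genes apart.

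The pyruvate and 2-oxoglutarate dehydrogenase complexes are built to the same plan, and their transcripts were several times more abundant. Bckdha stood below Pdha1, the corresponding alpha chain of the pyruvate complex, by 4.73-fold, with Pdha1 at 234 TPM in animal 1 against 232 TPM in animal 2. Bckdhb stood below Pdhb by 4.97-fold. Dbt stood below Dlat, the core of the pyruvate complex, by 5.55-fold and below Dlst, the core of the 2-oxoglutarate complex, by 8.04-fold. All 4 differences exceeded 2 SD. In the second table those of the core were larger, at 10.3-fold and 16.2-fold. The sum of the 3 subunit genes was 84.7 TPM in animal 1 against 96.7 TPM in animal 2 for the branched-chain complex. It was 443 and 453 TPM for the pyruvate complex (Pdha1, Pdhb and Dlat), and 387 and 430 TPM for Ogdh and Dlst. In the second table the sums were 118 and 129 TPM for the branched-chain complex, 717 and 743 TPM for the pyruvate complex, and 914 and 1021 TPM for Ogdh and Dlst, so the order of the last pair depends on the table.

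**Figure D2:**
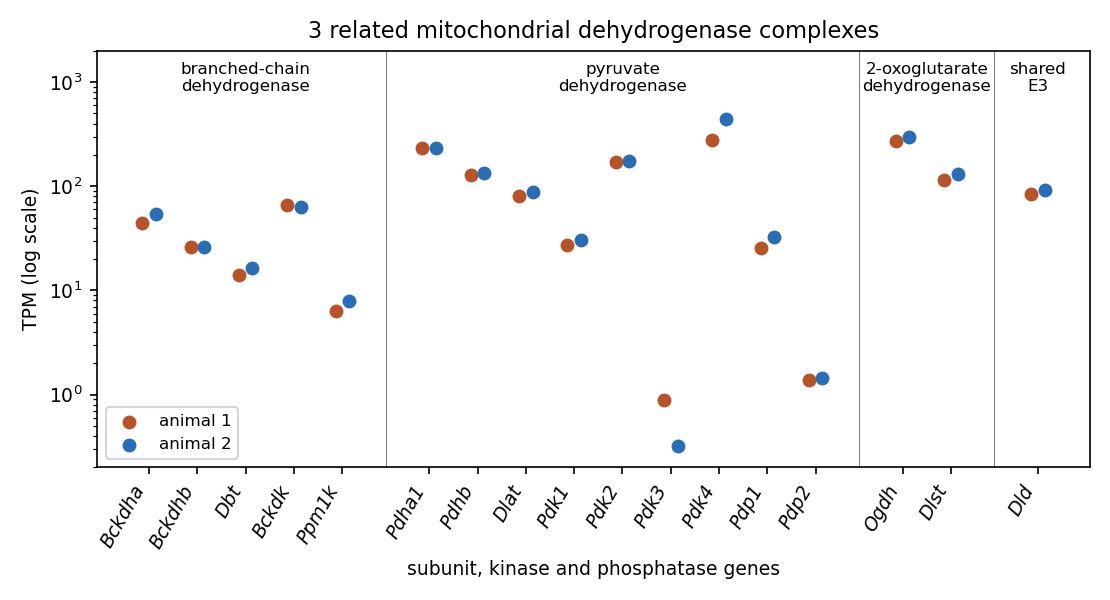
TPM on a log scale of the subunit, kinase and phosphatase genes of the branched-chain, pyruvate and 2-oxoglutarate dehydrogenase complexes and of the shared subunit Dld, in animal 1 (orange) and animal 2 (blue). Pdpr, also listed with the pyruvate phosphatase genes, is not drawn. Each branched-chain subunit lies below its pyruvate counterpart in both animals, and Pdk4 has the widest gap between the animals among genes over 1 TPM, at 278 and 444 TPM.

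The branched-chain complex has 1 kinase gene, and the pyruvate complex has 4. Bckdk stood below Pdk2 by 2.68-fold and below Pdk4 by 5.45-fold. Pdk4, a kinase gene known to respond to fasting, had 278 TPM in animal 1 against 444 TPM in animal 2. Pdk1 had 27.1 and 30.6 TPM and Pdk3, the lowest of the 4, 0.89 and 0.32 TPM. The phosphatase Ppm1k stood below Pdp1, its pyruvate counterpart, by 4.06-fold. The summed TPM of kinase over phosphatase was 10.3 in animal 1 against 8.09 in animal 2 for the branched-chain complex, and 17.8 and 18.9 for the pyruvate complex (Pdk1 to Pdk4 over Pdp1 and Pdp2). Pdpr, also listed with the pyruvate phosphatase genes, was left out of this ratio, at 41.6 TPM in animal 1 against 46.7 TPM in animal 2. With Pdpr the phosphatase genes summed to 68.5 and 81.0 TPM, beside 478 and 649 TPM for the kinases. The order of the 2 complexes in this ratio therefore depends on that choice. Kinase transcripts exceeded phosphatase transcripts for both complexes and in both animals.

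Of the other 19 genes of the pathway, 19 reached 1 TPM in both animals, at a median of 32.3 TPM beside 31.4 TPM for the 10 genes. The highest was Hadha, a subunit of the trifunctional enzyme of fatty acid oxidation, listed here with the isoleucine branch, at 130 TPM in animal 1 against 168 TPM in animal 2. The lowest was Abat, best known for the breakdown of the transmitter GABA, at 1.43 TPM in animal 1 against 1.31 TPM in animal 2. The 6 genes that carry propionyl-CoA to the citric acid cycle had mean levels of 6.515 to 46.6 TPM.

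Between the animals, 9 of the 10 genes had more scaled reads in animal 2 and 1, Bcat1, had more in animal 1, and scaling by library size alone turned Bckdk as well, leaving 8. Ratios between the animals were taken on expected counts scaled by TMM, which sets the bulk of genes equal, over the 15696 genes whose mean count was at least 10. Of these, 50.6% were higher in animal 2 and 49.4% in animal 1. By library size alone, 32.5% of them were higher in animal 2 and 67.5% in animal 1. Of the 6063 genes with a mean count of 500 to 10000, a range that holds 9 of the 10 genes, 62.6% were higher in animal 2. The share higher in animal 2 therefore moves with abundance, and the count of 9 is to be read beside it. The median log2 ratio of the 10 genes, animal 1 over animal 2, was -0.18, and the median of all genes was -0.004. For the 6063 genes with a mean count of 500 to 10000 the median was -0.05, nearer to that of the 10 genes.

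The differences were small. In the gene table Ivd was the furthest apart of the 9 (Ppm1k was in the second table), with 4298 reads in animal 1 against 5549 in animal 2, a log2 ratio of -0.39 (95% counting interval -0.45 to -0.34). Bckdha followed at -0.36 (-0.43 to -0.29) and Ppm1k at -0.34 (-0.47 to -0.21). Dbt stood at -0.24, Hibadh at -0.19, Mccc1 at -0.16, Bcat2 at -0.14 and Bckdhb at -0.12. Bckdk, with 4124 reads in animal 1 against 4264 in animal 2, was the closest at -0.07 (-0.13 to -0.01). The intervals cover counting error only, and with 1 library per animal no spread within an animal is known. Bcat1 was the 1 gene past 1.5-fold, at 1.51-fold higher in animal 1, where 17.2% of all genes were past 1.5-fold in either direction, 11.6% with animal 1 higher and 5.52% with animal 2 higher. Its interval of -0.07 to 1.31 holds 0, and it was under 1.5-fold with a prior count of 5 or in the second table, which left 0 genes past it. Scaled by the spike-ins, Bcat1 was at 0.40, under 1.5-fold, and Ivd at -0.59, past it. Of the genes with a mean count of 500 to 10000, 4.82% were past 1.5-fold. None of the 10 genes was past 2-fold, which 7.61% of all genes were.

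**Figure D3:**
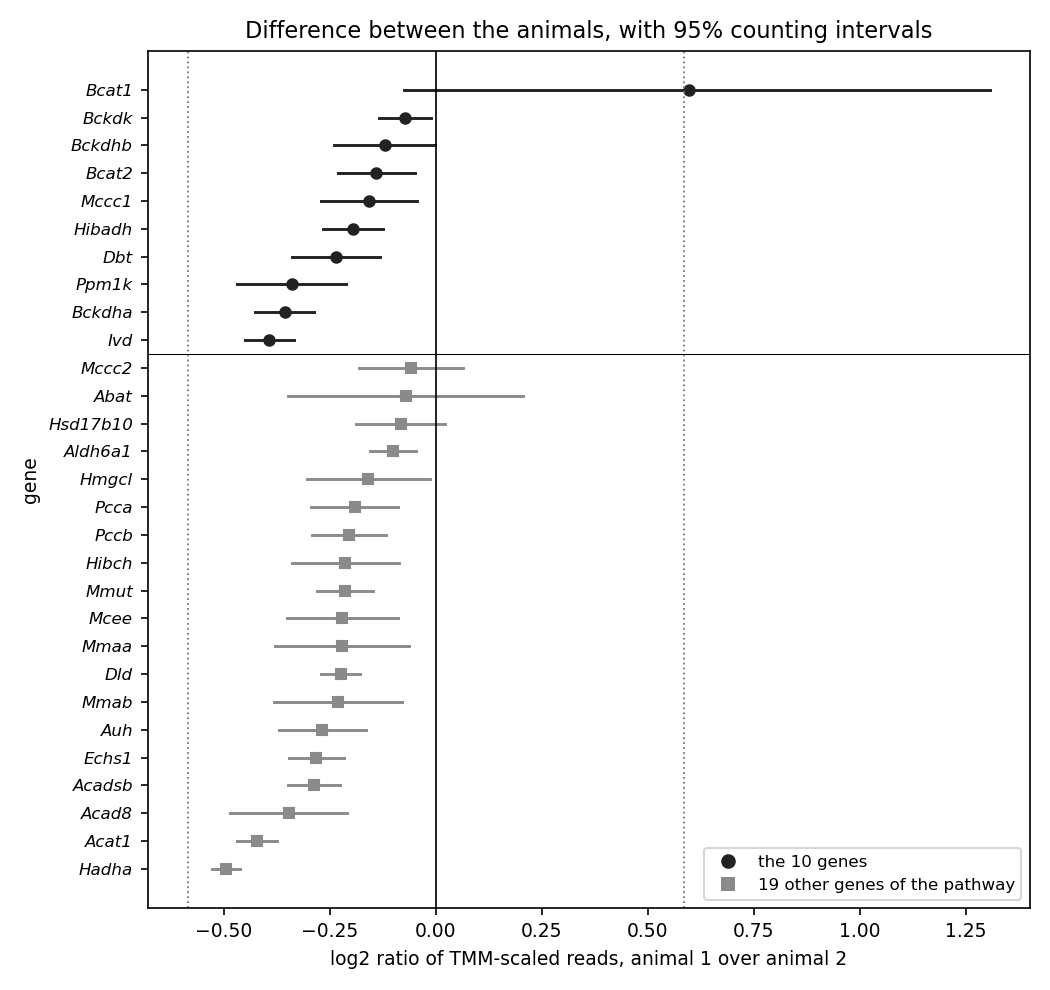
Log2 ratio of TMM-scaled reads, animal 1 over animal 2, for the 10 genes (black circles) and 19 other genes of the pathway (grey squares), with 95% exact binomial intervals that cover counting error only; dotted lines mark 1.5-fold. Except for Bcat1 at 0.60, with an interval that holds 0, every point lies left of 0 and none passes 1.5-fold. The intervals of Mccc2, Hsd17b10 and Abat hold 0 too. By library size alone Bckdk, Mccc2, Hsd17b10, Aldh6a1 and Abat also lie right of 0. By that scaling 67.5% of all genes with a mean count of at least 10 do.

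TPM gave another direction for 3 genes. Bckdhb, Bckdk and Mccc1 had slightly higher TPM in animal 1 but more scaled reads in animal 2. The share of all genes higher in animal 1 by TPM was not computed. For Mccc1 a short retained-intron transcript, Mccc1-208, held 3.96 TPM in animal 1 against 1.75 TPM in animal 2 from 55.0 and 25.9 reads. For Bcat1 the log2 ratio of TPM was 1.36 and that of reads 0.60. Its short transcript Bcat1-209 held 0.25 of the 0.59 TPM in animal 1 from 3.66 reads, and was listed at 0 in animal 2. The gap in Bcat1 thus rests on few reads in both measures.

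All 19 other pathway genes also had more scaled reads in animal 2, though the counting intervals of Mccc2, Hsd17b10 and Abat held 0. The log2 ratios of the 19 genes ran from -0.49 for Hadha to -0.06 for Mccc2, with a median of -0.22, and none was past 1.5-fold. When scaled by library size alone 4 of them turned, and 67.5% of all genes were then higher in animal 1. Of the 11 genes of the pyruvate complex and its regulators, 10 were higher in animal 2 (9 by library size alone). By TMM the exception was Pdk3, at 0.79 (0.07 to 1.55) from only 46 reads in animal 1 and 26 in animal 2. Pdk4 stood at -0.82, from 26813 reads in animal 1 and 46386 in animal 2. The slow fibre markers lay the same way and further, 7 of 7 past 2-fold higher in animal 2, at a median of -2.54, with Myl2, the highest of them in level, at 370 TPM in animal 1 against 920 TPM in animal 2. The adipocyte markers lay the other way, 9 of 9 higher in animal 1 and 8 past 2-fold, at a median of 3.75, with Cfd at 442 TPM in animal 1 against 27.6 TPM in animal 2. The Schwann cell markers did likewise, 10 of 10 past 2-fold higher in animal 1, at a median of 2.71. All 8 macrophage markers with a mean count of at least 10 were higher in animal 1, at a median of 0.55, and the whole list of 9 summed to 66.5 TPM in animal 1 against 42.0 TPM in animal 2. Fibroblast markers had a median of 0.26 (0.06 by the spike-ins), endothelial markers 0.18 (-0.01) and skeletal and fast fibre markers 0.01 (-0.19). The part of these cell types in the differences of the 10 genes was not tested.

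**Figure D4:**
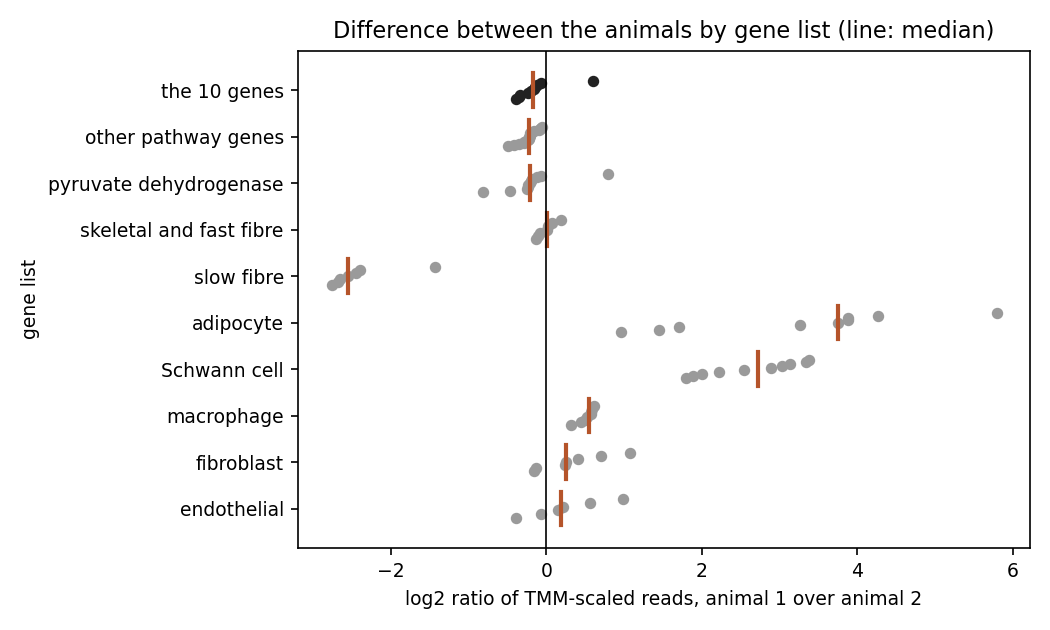
Log2 ratio of TMM-scaled reads, animal 1 over animal 2, for each gene of the lists with a mean count of at least 10 (points) with the median of each list (line). The 10 genes have a median of -0.18 and stay within 0.60 of 0, while slow fibre markers have a median of -2.54, adipocyte markers 3.75 and Schwann cell markers 2.71.

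Among carriers and regulators, Klf15, a transcription factor known to promote branched-chain amino acid breakdown in muscle, had 21.9 TPM in animal 1 against 23.1 TPM in animal 2, the highest mean of its list of 8. Ppargc1a, the coactivator of mitochondrial genes, had 14.2 TPM in animal 1 against 25.0 TPM in animal 2, a log2 ratio of scaled reads of -0.90 (95% counting interval -0.99 to -0.82). The carriers Slc43a2 and Slc7a8 were past 1.5-fold higher in animal 2, at -0.67 and -0.69, but neither was when scaled by library size alone. Slc7a5, the large neutral amino acid carrier, was the lowest of the list, with 1.02 TPM in animal 1 against 0.46 TPM in animal 2 from 131 and 63 reads. Its log2 ratio was 1.03 (0.59 to 1.49), past 2-fold, but not when scaled by the spike-ins or with a prior count of 5. Ppargc1a, and Klf15 at -0.18, lay in the direction of 9 of the 10 genes (8 by library size alone), while the carriers were split. Any link of these regulators to the differences of the 10 genes was not tested.

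The annotation lists 61 transcripts for the 10 genes, 30 of them protein coding, and 45 were above 0 TPM in at least 1 animal in the first transcript table. The leading transcript was protein coding for all 10 genes and the same in both animals. By the mean of the animals, the leading transcript was also the same in both tables for 8 of 10, the exceptions being Bckdhb and Ivd. For Bcat1 this did not hold in animal 1, where the second table gave 49.7% to Bcat1-209 and 23.5% to Bcat1-203. Hibadh and Bckdha were close to single-transcript genes. Hibadh-201 held 98.2 ± 0.099% of the gene's TPM and Bckdha-201 held 93.1 ± 3.63% (SD, n = 2).

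Ivd was the gene with the most TPM outside coding transcripts. Its only coding transcript, Ivd-201, held 49.0 ± 0.608% of the TPM but 85.6% of the reads, since TPM divides reads by transcript length. The processed transcripts Ivd-206 and Ivd-207 made up much of the rest. Ivd-206 had 15.5 TPM in animal 1 against 16.5 TPM in animal 2, and Ivd-207 had 7.72 and 8.23 TPM. In the second table Ivd-206 led, with 34.4 TPM in animal 1 against 44.0 TPM in animal 2, and Ivd-201 held 35.6%. Counting coding transcripts alone, Ivd was at 27.2 TPM in animal 1 against 33.5 TPM in animal 2, below Bckdk at 52.5 and 51.8 TPM and Bckdha at 44.4 and 54.3 TPM.

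**Figure D5:**
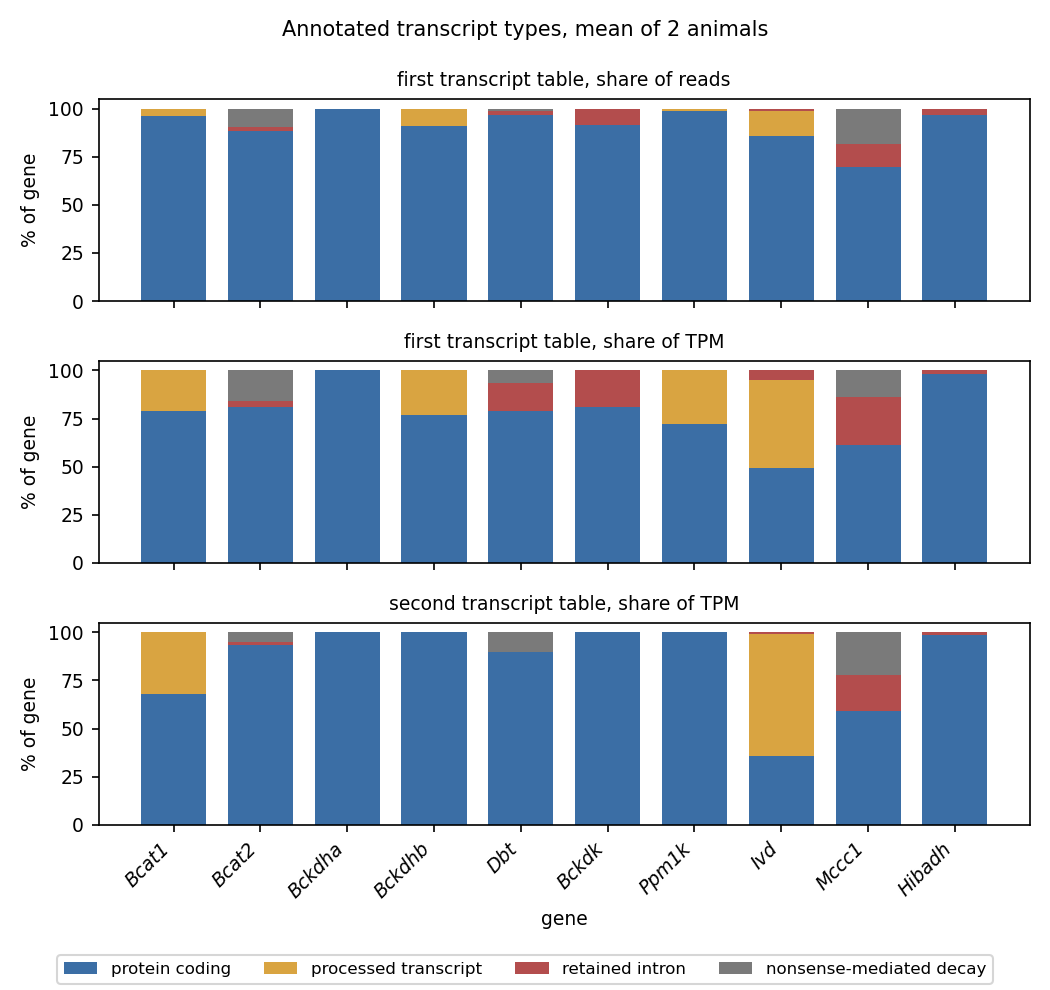
Percent of each gene's reads (top) and TPM (middle) in the first transcript table and of its TPM in the second (bottom), by annotated transcript type, as the mean of 2 animals. Coding transcripts hold 85.6% of Ivd's reads but 49.0% of its TPM, and 100% of Bckdha's reads and TPM.

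In the first table the coding share of TPM was 61.4 ± 6.14% for Mccc1, 72.4 ± 0.771% for Ppm1k and 76.6 ± 0.191% for Bckdhb. For Mccc1, transcripts marked for nonsense-mediated decay were counted too, and Mccc1-205 took 18.6% of its reads. For Ppm1k the coding transcript Ppm1k-201 took 97.5% of reads, and a short processed transcript from 10.7 reads in animal 1 against 14.6 in animal 2 made up 27.6% of TPM. The kinase Bckdk kept 80.9 ± 1.08% in coding transcripts, and the retained-intron transcript Bckdk-203 held the remaining 19.1%. The second table gave other shares, with coding transcripts at 99.9% of TPM for Bckdk and 100% for Ppm1k and Bckdhb, and at 59.2% for Mccc1. In the first table coding shares ranged widely between genes and little between the animals, apart from Bcat1 (57.5% in animal 1 and 100% in animal 2) and Mccc1 (57.0% and 65.7%).

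Several genes were counted from more than 1 start. For Bckdk, the start at 127904762 (mm10, chromosome 7) took 62.5% of reads, with 40.5 TPM in animal 1 against 39.2 TPM in animal 2. The upstream starts at 127904082 to 127904103, beside which RefSeq's window lies, took 35.4%. The second table gave 41.1 TPM in animal 1 against 44.3 TPM in animal 2 to Bckdk-204, which starts at 127904640 and had 0.43 and 0.58 TPM in the first table. For Bckdhb the first start, in the window of high G and C content printed above, had 13.1 TPM in animal 1 against 15.1 TPM in animal 2, and 32.9 and 29.8 TPM in the second table. Its inner start, Bckdhb-205, had 6.94 TPM in animal 1 against 4.81 TPM in animal 2, but was listed at 0 TPM and at 2.28 TPM in the second table. Bckdhb-205 had 339 reads with a posterior SD of 76.3 in animal 1 against 250 reads with 62.3 in animal 2 in the first table, and the tables differ on the inner start. For Bcat2 the first start, at 45570153 in the printed window, had 16.9 TPM in animal 1 against 13.9 TPM in animal 2, and Bcat2-202, which starts at 45570373, had 9.98 and 12.5 TPM. The second table placed 43.9 and 39.9 TPM on the first start and 0 and 0.62 TPM on Bcat2-202.

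Annotated genes that overlap the 10 genes had few reads. The most in animal 1 were those of B3gnt8, on the strand opposite Bckdha, with 61 reads in animal 1 and 55 in animal 2, where Bckdha had 2923 and 3679. The most in animal 2 were those of Gm44434, on the same strand as Hibadh, with 46 reads in animal 1 and 56 in animal 2, where Hibadh had 3074 and 3459. Gm4596, a processed pseudogene opposite Dbt, had 31 reads in animal 1 and 49 in animal 2, where Dbt had 1429 and 1654. Whether the counting used strand is not given in the sources used here, so reads of opposite partners cannot be told apart with certainty, and strand would not separate same-strand partners.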

How the data were processed

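Total RNA of 2 gastrocnemius samples was measured. Per the file headers, the gene table of each library gives expected counts and TPM as deposited by the authors, in RSEM's column layout. A first transcript table has the same columns and, as deposited, the percent of a gene's TPM that falls to each transcript. A second, in kallisto's layout, gives estimated counts and TPM as deposited. The file lists deposited with them give the build as mm10 and the annotation as GENCODE M21. The sources used here do not name the tools, their versions or a strand setting. Reads of CAST alleles were counted on mm10, a B6 genome, and some may be lost, which was not analysed here.

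Expected counts were rounded and scaled with edgeR's TMM factors, with a prior count of 0.5, over genes whose mean count was at least 10. Numbered rows without a gene name (26248 rows, holding 3 reads or 6.63e-06% of counts in animal 1 against 5 or 1.04e-05% in animal 2), spike-ins (96 rows, 0.479% and 0.387% of counts) and phiX were kept out of library sizes. Intervals are exact binomial at 95% and cover counting error only. Ratios between genes within an animal are log2 ratios of TPM with a pseudocount of 0.1, called beyond the spread where both animals had 1 sign and the mean was over 2 SD. The members and lists were chosen with earlier results of these data known. Named were the 10 genes and, of the other lists, the highest and lowest in TPM, those past 1.5-fold, partners of a gene's complex or step, and the highest cell type markers. Ppm1k-202, Mccc1-208, Bcat1-209 and the other transcripts, starts and overlapping genes named were chosen after their values were seen. The scaling was tested on simulated data with equal numbers of genes raised and lowered. The uneven split of genes past 1.5-fold between these animals was not simulated. The software was Python 3.11.15 with matplotlib 3.10.9, scipy 1.17.1, pandas 2.3.3 and numpy 2.4.6, and R 4.3.3 with edgeR 4.0.16 and, as an alternative, DESeq2 1.42.0.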

Additional observations from a re-analysis of the deposited data

How the results depend on the processing

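No paired analysis was possible because the 2 libraries form 1 group. With 1 library per animal, leaving out a library gives no ratio between the animals and no spread for a pair of genes. The median level of the 10 genes, 31.4 TPM, was 39.5 TPM in the second transcript table and 83.2 TPM when TPM was rescaled to nuclear protein-coding genes, and 30.7 to 32.1 TPM with either library left out. The count of 9 genes at 1 TPM or more held at 0.5 and 5 TPM, in the second table and in each library alone. The number of genes higher in animal 1, 1 of 10, was 2 when scaled by library size alone (Bckdk joined Bcat1), 0 with a mean count of 100 or more, which leaves out Bcat1, and 4 by TPM. The share of all genes higher in animal 1 by TPM was not computed, so the count of 4 does not set the genes apart. The TPM measure and the background of genes with middle counts were chosen after seeing the data. The median log2 ratio, -0.18, was -0.066 by library size alone and -0.37 by the spike-ins. These scalings also moved the median of all genes, to 0.11 and -0.20, and the 10 genes stayed 0.17 below it. That background is not matched in abundance. By TMM, genes with a mean count of 500 to 10000 had a median of -0.05, nearer to that of the 10 genes. The 1 gene past 1.5-fold, Bcat1, became 0 with a prior count of 5, in the second table, and with a mean count of 100 or more. By the spike-ins the count stayed 1, but the gene was Ivd (-0.59) and not Bcat1 (0.40). The count of genes with a leading transcript over 50% of TPM, 8 of 10, was 6 to 8 with either library left out and 7 in the second table. The log2 ratio of Ivd over Acadsb reversed to 0.12 in the second table, for which the cause was not tested.

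Depth limits Bcat1, whose 48 and 31 reads leave its ratio between the animals undecided. TPM of genes with short non-coding transcripts (Ivd, Ppm1k, Mccc1) depends on how reads were shared among transcripts.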
